A study of Mus musculus with 12 samples.

Results

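The effect of OXR1A loss that male and female mouse livers have in common was measured by comparing 6 knockout with 6 wild-type livers, which are all 12 libraries of the study. The 4 groups of 3 libraries were WT males, OXR1A-/- males, WT females and OXR1A-/- females. All mice were aged 12 months, and the tissue was whole liver. The labels give no strain, no description of the knockout allele and no diet, and they do not say that the 3 libraries of a group are different animals, and a p-value here measures only the spread between libraries, which may be technical. The effect of genotype was estimated with sex as a covariate, which makes it the mean of the male and the female effect. Of 18560 genes in the table, 11514 had at least 1 FPKM (fragments per kilobase of transcript and sequencing depth) in at least 3 libraries and were tested. Genes that changed the same way in males and females are the subject here.

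OXR1 is a protein of the TLDc family, known for protecting cells against oxidative stress, and OXR1A is its long isoform. The study's title places the knockout in the context of fatty liver and of impaired hormone response and lipid metabolism in males. Liver expression in mice differs strongly between males and females, because the pulses of growth hormone differ between the sexes. Hepatocytes also differ along the liver lobule, from periportal cells, which make urea, to pericentral cells, which make glutamine and hold many drug-metabolizing enzymes. The coefficient used here averages the sexes, so an effect in one sex alone also enters it, at a reduced size and with a wider spread.

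Hepatocyte markers stood high in every library (Alb at 31720 to 45904 FPKM), and muscle and kidney markers such as Ckm, Acta1, Umod and Slc34a1 had a median of 0. FPKM summed to 526203 to 667434 per library, highest in WT male 2, in which long transcripts were scarcer than in the others (slope of deviation on log2 length -0.15 against -0.06 to 0.08). Xist and the Y-linked genes followed the labelled sex in all 12 libraries. OXR1A-/- male 3 held a trace of Xist (0.82 FPKM), and WT female 1 and OXR1A-/- female 1 held traces of Eif2s3y (1.89 and 0.85 FPKM). No read totals come with the table, so the depth behind each value is unknown and no counting interval is given.

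Oxr1 itself (GRCm38 chromosome 15, 41447482 to 41861051) was listed at 23.2, 12.1 and 18.4 FPKM in the WT males and at 25.0, 22.9 and 22.1 in the OXR1A-/- males. It stood at 17.4, 17.5 and 20.6 in the WT females and at 20.1, 19.7 and 20.96 in the OXR1A-/- females. The groups overlapped in both sexes and the shared difference did not pass the test (log2 change 0.27, SE 0.13, limma adjusted p = 0.301). All isoforms of the gene count towards this value, which is therefore no check on the absence of OXR1A. None of the 42 tested genes within 10 Mb of Oxr1 was called, and Gpd1 was the sole called gene on its chromosome.

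Across both sexes 32 of 11514 genes (0.278%) changed at an adjusted p under 0.05 in limma, 21 upwards (0.182%) and 11 downwards (0.0955%). All 32 moved the same way in males and females, and in all 32 the 3 knockout values lay wholly above or wholly below the 3 wild-type values in each sex. Without a model, 448 genes separated knockout from wild type in both sexes in the same direction, 381 upwards (3.31%) and 67 downwards (0.582%), against 56 that separated in opposite directions. An unadjusted p under 0.05 was reached by 2114 genes, 1766 upwards (15.3%) and 348 downwards (3.02%). The excess of rises moved with the scale of the libraries: the median log2 change of all tested genes was 0.10 (0.19 in males and 0.00 in females). With median-ratio scaling that median was 0.01, and 13 genes were called upwards and 23 downwards. Quantile normalization called 29 upwards and 32 downwards. All 32 genes kept their direction under both scalings, 22 of them kept the call with the first and 27 with the second.

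The number of calls also depended on single libraries. The direction of the 32 genes could not turn in these fits, because their values did not overlap in either sex. Leaving out WT female 3 or WT male 2 raised the count to 90 or 69, and leaving out OXR1A-/- female 1 raised it to 55. Leaving out WT male 3, WT female 1, WT male 1 or WT female 2 lowered it to 3, 5, 13 or 14, and leaving out any one of the OXR1A-/- males gave 15. The counts without OXR1A-/- female 2 and OXR1A-/- female 3 were 25 and 21. Orm2, Orm3 and Erdr1 were called whichever library was left out, Chi3l1 in 11 of the 12 cases, and Cyp2c38, Paqr9, Sult2a7, Raet1d, Cdh1, Aldh1a1 and 4930453N24Rik in 10. Without the 3 libraries that hold traces of the other sex's transcripts, Orm2 alone was called (adjusted p = 0.00275). The direction of the 32 was fixed here for the same reason.

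**Figure D1:**
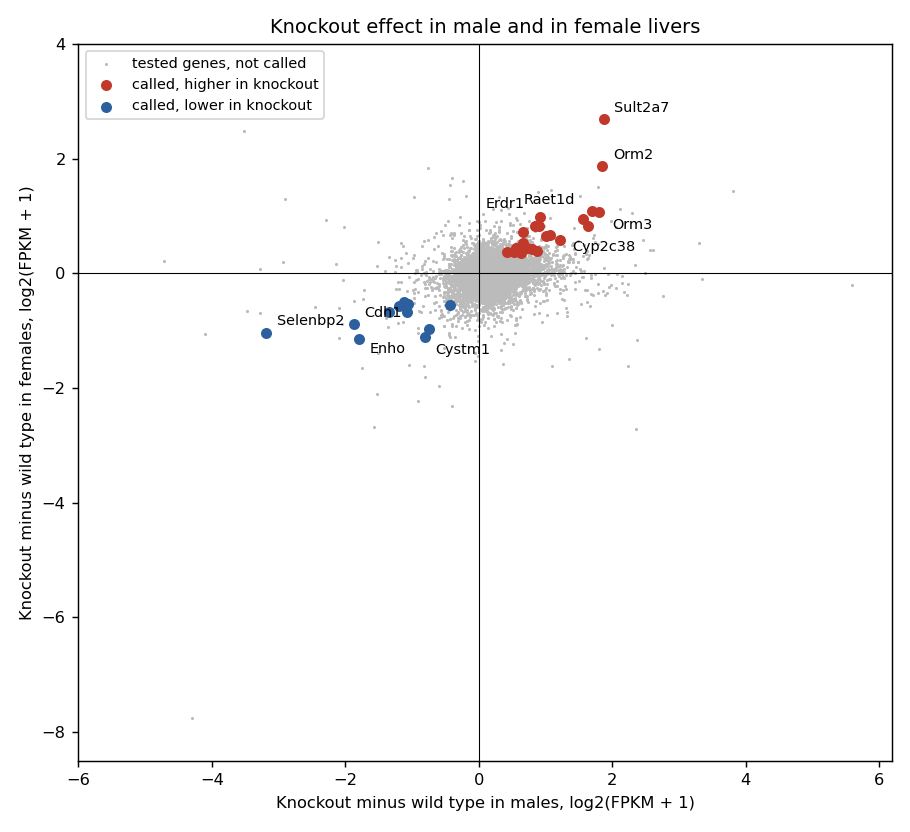
Knockout minus wild type in males (x axis) against the same difference in females (y axis), both on the log2(FPKM + 1) scale, for 11514 tested genes. Grey points were not called, and the 21 red and 11 blue points are the called genes, which lie in the quadrants where both sexes moved the same way, with Sult2a7 and Orm2 highest and Selenbp2 farthest to the left among them. The lowest grey point is Mup15.

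The plot of male against female effects shows the size of each called gene in each sex. The change was larger in males for 25 of the 32 genes, and for 21 of them after median-ratio scaling. The difference between the sexes passed its own test for Selenbp2 alone among the 32. Orm2 passed in each sex separately, by the larger of its male and female p (adjusted p = 0.027), and was the only gene of 11514 to do so (0.00869%). No gene passed this test with median-ratio scaling, with quantile normalization, with no filter, with each sex fitted alone or in 10 of the 12 fits that left out 1 library. With array weights the gene that passed was Selenbp2.

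**Figure D2:**
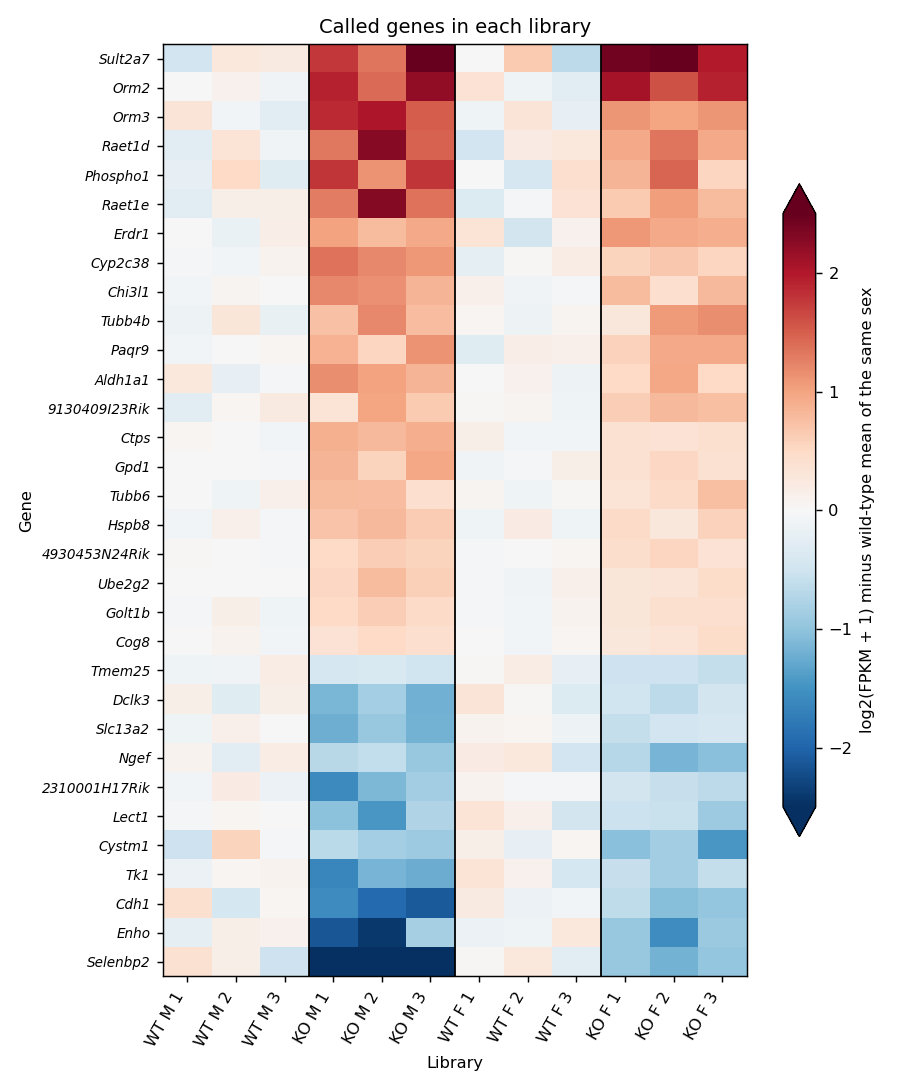
Each of the 32 called genes (rows) in each library (columns), as log2(FPKM + 1) minus the mean of the 3 wild-type libraries of the same sex. WT is wild type, KO is OXR1A-/-, M is male and F is female. The color scale ends at 2.5 in either direction, and every knockout library has the sign of its gene's shared change.

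The acute phase proteins, which the liver secretes in inflammation, gave the gene with the smallest p. Orm2 encodes an orosomucoid, a plasma glycoprotein that binds drugs and dampens immune responses, and Orm3 is a neighbouring copy of the gene. Orm2 (Entrez 18406, GRCm38 chromosome 4, 63362449 to 63365877) was listed at 65.8, 71.6 and 63.1 FPKM in the WT males and at 255, 179 and 316 in the OXR1A-/- males. In females it stood at 27.5, 19.7 and 17.5 in WT and at 93.2, 66.0 and 83.0 in OXR1A-/-. The knockout females thus lay within or above the range of the wild-type males. The rise was 3.74-fold in males and 3.75-fold in females (shared log2 change 1.86, SE 0.15, adjusted p = 0.000189).

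Orm3 (Entrez 18407, chromosome 4, 63356069 to 63359506) was listed at 4.59, 3.25 and 2.74 FPKM in WT males and at 15.3, 17.2 and 11.8 in OXR1A-/- males. It was higher in females than in males in both genotypes, unlike Orm2, at 8.23, 11.5 and 7.59 in WT and 20.4, 18.7 and 20.4 in OXR1A-/-. The rise was 4.2-fold in males and 2.18-fold in females (log2 change 1.44, SE 0.17, adjusted p = 0.00697). The copies are so alike that reads could be split between them, so their separate values are uncertain. The 250 bases before a transcript start of each gene (RefSeq, GRCm38.p6, plus strand) are shown because the genes lie side by side and rose together. For Orm3 that start lies 89 bases inside the gene's span given above, and for Orm2 it is the first base of the gene. Capitals mark the bases with no identical partner when the 2 windows are aligned end to end. They match at 219 positions (87.6%). The first is chr4:63362199-63362448 and the second chr4:63355908-63356157.
Orm2: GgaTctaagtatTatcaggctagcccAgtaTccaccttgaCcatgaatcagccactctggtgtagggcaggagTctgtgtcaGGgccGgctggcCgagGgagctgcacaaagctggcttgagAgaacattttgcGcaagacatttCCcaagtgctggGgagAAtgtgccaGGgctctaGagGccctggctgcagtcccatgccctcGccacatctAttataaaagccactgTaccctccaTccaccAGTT
Orm3: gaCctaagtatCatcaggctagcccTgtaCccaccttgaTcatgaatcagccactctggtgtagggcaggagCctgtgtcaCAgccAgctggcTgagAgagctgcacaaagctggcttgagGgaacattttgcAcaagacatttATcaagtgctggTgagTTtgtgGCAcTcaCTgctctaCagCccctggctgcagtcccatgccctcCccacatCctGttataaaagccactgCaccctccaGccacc

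Both windows hold a TATAAA box, which begins 33 bases before the start in Orm2 and 29 before it in Orm3. Of 9162 tested genes with a RefSeq promoter, 188 (2.05%) hold these letters within 50 bases before the start on the given strand. Among the 22 called genes with a promoter, 3 do, the third being Cyp2c38.

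Of 31 tested acute phase genes and metallothioneins, 2 passed the test, both upwards (0.182% of all tested genes did). An unadjusted p under 0.05 was reached by 16, all upwards (15.3% of all tested genes reached it upwards). The median change of the list was 0.38 (0.54 in males and 0.35 in females), against 0.10 for all tested genes. In 22 of the 31 the mean was higher in knockout in both sexes, and in none was it lower in both. Of all 11514 tested genes, 4829 were higher in both and 1433 lower in both. Including Orm2 and Orm3, 7 of the 31 were without overlap upwards in both sexes, against 3.31% of all tested genes, the others being Lcn2, Apcs, Hp, Hpx and Lbp. After median-ratio scaling 5 of the list still had no overlap, and its median was 0.28.

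Lcn2, the iron-binding lipocalin 2 that neutrophils and injured liver release, was listed at 5.18, 31.9 and 25.6 FPKM in WT males and at 329.8, 222 and 202 in OXR1A-/- males. In females it stood at 24.6, 14.3 and 11.9 in WT and at 65.7, 29.4 and 49.3 in OXR1A-/-. The groups were apart in each sex, by 12.0-fold and 2.84-fold. The shared difference did not pass (log2 change 2.63, SE 0.50, adjusted p = 0.0523), and with Mphosph10 and Slc16a6 (0.0522 and 0.0523) it lay just outside the threshold. Dclk3 lay just inside it (0.0466). Haptoglobin (Hp), which binds free hemoglobin, had a log2 change of 0.66 (SE 0.14, adjusted p = 0.0611), and hemopexin (Hpx), which binds free heme, one of 0.50 (SE 0.10, adjusted p = 0.0611). With median-ratio scaling neither Hp nor Hpx was without overlap in both sexes (limma adjusted p = 0.182 and 0.207). With quantile normalization both were.

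Chi3l1, a chitinase-like protein secreted in inflamed and fibrotic tissue, was near the floor of the table in wild-type livers, at 0.12 to 0.23 FPKM in males and 0.16 to 0.36 in females. It was listed at 1.71, 1.60 and 1.12 in OXR1A-/- males and at 1.14, 0.65 and 1.18 in OXR1A-/- females. All 6 knockout values exceeded all 6 wild-type values, with ratios of 8.20 in males and 4.07 in females (log2 change 0.87, SE 0.11, adjusted p = 0.0146). The log2(FPKM + 1) scale understates the change of a gene this low.

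Markers of macrophages were higher in knockout than in wild-type males, and their ranges overlapped between the genotypes in females. The summed FPKM of 19 Kupffer cell and macrophage markers ran from 226 to 408 in WT males, from 489 to 1254 in OXR1A-/- males, from 558 to 836 in WT females and from 649 to 935 in OXR1A-/- females. Of the 19, none was called and none was without overlap in both sexes. An unadjusted p under 0.05 was reached upwards by 13, where 15.3% of all tested genes reached it. The median change was 1.12 in males and 0.08 in females. OXR1A-/- male 2 had the highest sum of the 12 livers, and without it the male median was 0.78. The 18 hepatocyte identity genes summed to less in knockout than in wild-type males without overlap, 54498 to 60183 against 69753 to 79911. They summed to 68687 to 75714 in WT females and 72895 to 75067 in OXR1A-/- females. Alb, at 31720 to 45904 FPKM over the 12 livers, makes up much of this sum. Of the 18, 4 had an unadjusted p under 0.05 downwards and 1 upwards (3.02% and 15.3% of all tested genes). Apoa1 alone was without overlap in both sexes, downwards (0.582% of all tested genes). The defining macrophage markers Vsig4, Emr1 and Cd5l were all present, with Cd5l at 18.8 to 27.5 in WT males, 45.2 to 106 in OXR1A-/- males, 58.1 to 80.7 in WT females and 64.6 to 76.4 in OXR1A-/- females. The 4 tested neutrophil markers summed to 5.92 to 10.1 in WT males, 8.13 to 14.9 in OXR1A-/- males, 13.0 to 16.8 in WT females and 17.4 to 20.1 in OXR1A-/- females. Of these, the calgranulin S100a8 was without overlap upwards in both sexes (log2 change 0.58, SE 0.12, adjusted p = 0.0653), against 3.31% of all tested genes. It was low in males, at 0.62 to 0.80 FPKM in WT and 1.02 to 2.53 in OXR1A-/-. The part of these cells in the changes of Orm2, Orm3, Chi3l1 and Lcn2 was not tested, and in whole tissue more cells of a type and more RNA per cell cannot be told apart.

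Raet1d and Raet1e encode retinoic acid early transcripts, cell surface ligands of the NKG2D receptor through which natural killer cells recognize stressed cells. Raet1d (Entrez 56554, chromosome 10, 22361861 to 22374143) was listed at 9.86, 15.6 and 11.3 FPKM in WT males and at 31.6, 62.3 and 35.5 in OXR1A-/- males. In females it stood at 19.2, 31.4 and 32.8 in WT and at 53.4, 70.3 and 53.1 in OXR1A-/-. It rose 3.52-fold in males and 2.12-fold in females (log2 change 1.39, SE 0.20, adjusted p = 0.0166). Raet1e (Entrez 379043, chromosome 10, 22158542 to 22189697) rose alongside it, by 3.72-fold and 1.80-fold (log2 change 1.24, SE 0.21, adjusted p = 0.0346), from 3.89 to 5.60 and 12.0 to 20.0 in WT males and females to 13.5 to 28.4 and 24.9 to 32.9 in knockout. In both genes wild-type females already stood above wild-type males, and OXR1A-/- male 2 was the highest of the knockout males. The 14 tested lymphocyte markers, natural killer genes included, gave no call and no gene without overlap.

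The 250 bases before a transcript start of Raet1d and before the second start that RefSeq lists for Raet1e (GRCm38.p6, plus strand) are shown because the genes rose together and these windows are near copies. The starts lie 33 and 14955 bases inside the spans given above. The windows match at 245 positions (98.0%), with capitals as above. The window before the first Raet1e start is not shown and matches that of Raet1d at 140 positions (56.0%). The windows of Orm2 and Raet1d match at 55.6%. Reads of Raet1d and Raet1e may likewise be hard to separate. The Raet1d window shown is chr10:22361644-22361893 and that of Raet1e chr10:22173247-22173496.
Raet1d: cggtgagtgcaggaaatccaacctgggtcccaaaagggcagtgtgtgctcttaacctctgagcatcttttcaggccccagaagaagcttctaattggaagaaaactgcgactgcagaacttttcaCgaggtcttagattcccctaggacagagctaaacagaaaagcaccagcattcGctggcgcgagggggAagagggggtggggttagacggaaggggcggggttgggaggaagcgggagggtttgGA
Raet1e: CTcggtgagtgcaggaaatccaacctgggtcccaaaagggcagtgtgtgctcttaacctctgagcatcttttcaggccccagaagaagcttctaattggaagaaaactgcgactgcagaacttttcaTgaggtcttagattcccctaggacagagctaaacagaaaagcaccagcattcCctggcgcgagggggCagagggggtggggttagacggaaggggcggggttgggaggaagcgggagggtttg

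Enzymes that act on steroids, retinoids and drugs gave the largest shared rise among called genes. Sult2a7, of the sulfotransferase family that sulfates steroids such as dehydroepiandrosterone, was listed at 1.56, 3.28 and 3.16 FPKM in WT males and at 11.1, 7.99 and 19.5 in OXR1A-/- males. It is mainly a female transcript in these livers, at 27.3, 44.1 and 17.2 in WT females and at 151, 366 and 112 in OXR1A-/- females. The ratio of means was 4.83 in males and 7.09 in females (log2 change 2.28, SE 0.33, adjusted p = 0.0166), and no knockout value overlapped the wild type of its sex. The Sult2a genes are near copies of each other, so the share of reads given to this member is uncertain.

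Cyp2c38, a cytochrome P450 of the Cyp2c family, stood at 22.2, 21.4 and 24.2 FPKM in WT males and at 59.5, 53.0 and 49.0 in OXR1A-/- males, and at 57.1, 69.0 and 77.1 in WT females against 99.3, 108 and 97.6 in OXR1A-/- females. The rise of 2.38-fold and 1.5-fold (log2 change 0.90, SE 0.12, adjusted p = 0.0146) left the knockout males at the lower edge of the wild-type females. Aldh1a1, the retinal dehydrogenase that makes retinoic acid, was among the most abundant called genes. It was listed at 915, 663 and 742 FPKM in WT males, 1726, 1546 and 1384 in OXR1A-/- males, 388, 417 and 354 in WT females and 543, 754 and 547 in OXR1A-/- females, a rise of 2.01-fold and 1.59-fold (log2 change 0.83, SE 0.12, adjusted p = 0.0166).

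Of 30 tested genes of xenobiotic metabolism these 2 were called upwards and none downwards, where 0.182% and 0.0955% of all tested genes were. At an unadjusted p under 0.05 there were 4 upwards and 6 downwards (15.3% and 3.02% of all tested genes). The median of the list was -0.06. The carboxylesterase Ces2a was without overlap in both sexes in the other direction (log2 change -0.70, adjusted p = 0.0623), against 0.582% of all tested genes. Paqr9, of the progestin and adipoQ receptor family, stood at 73.1, 77.4 and 78.6 FPKM in WT males, 139.5, 112 and 168 in OXR1A-/- males, 55.3, 76.7 and 74.8 in WT females and 103, 133 and 132 in OXR1A-/- females. Its rise was alike in size in males and females, at 1.83-fold and 1.78-fold (log2 change 0.84, SE 0.12, adjusted p = 0.0162, and 0.0728 with median-ratio scaling).

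**Figure D3:**
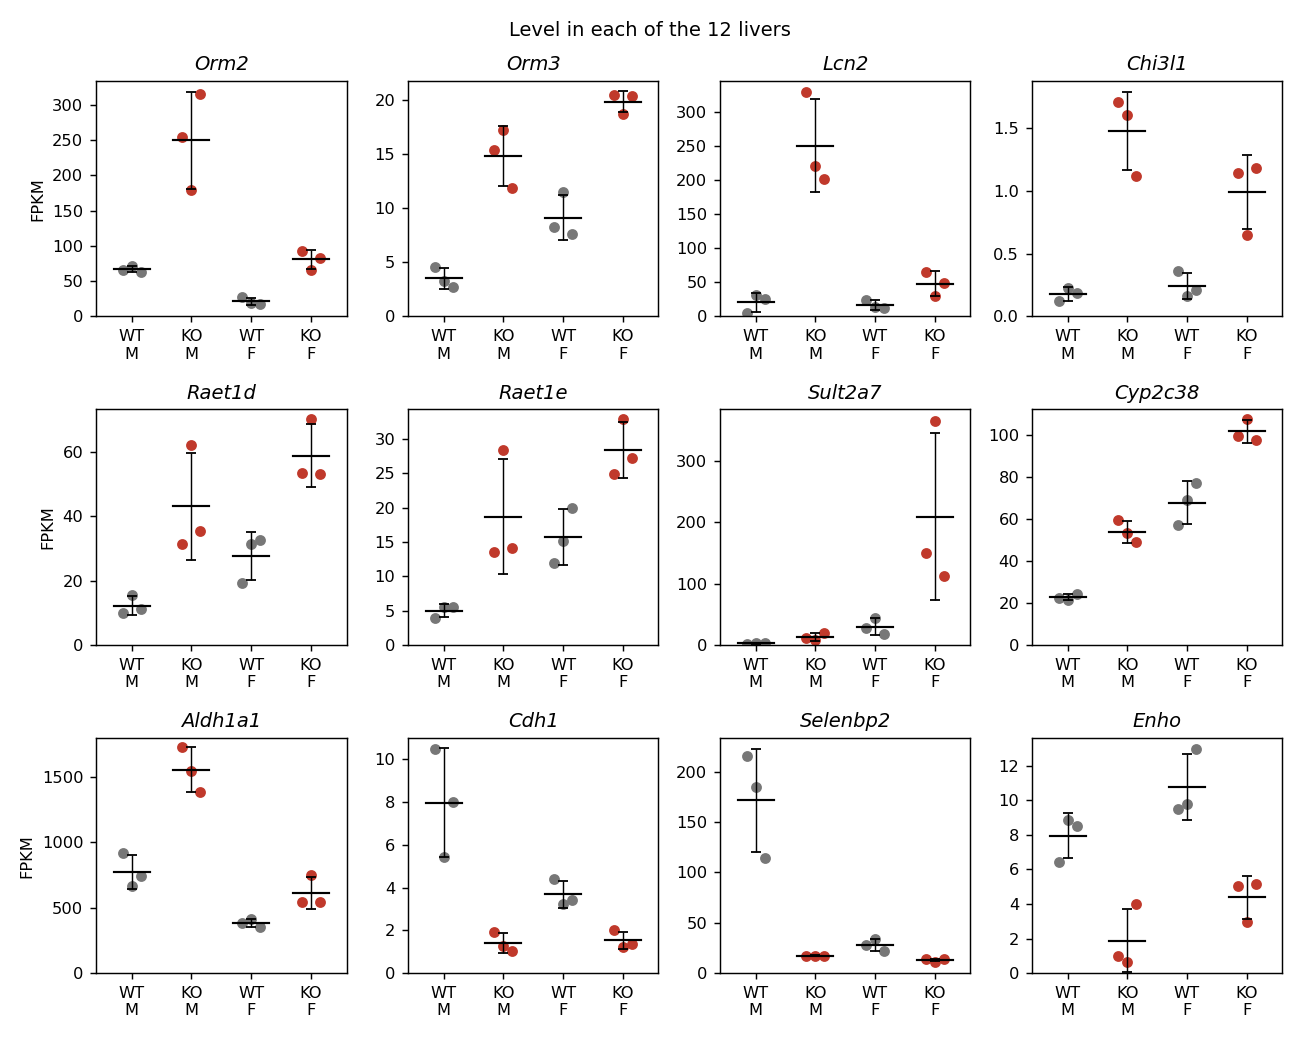
FPKM of 12 genes in each of the 12 livers, on linear axes that start at 0. WT is wild type, KO is OXR1A-/-, M is male and F is female. Points are single libraries, the long bar is the mean of 3 and the whiskers are the SD. In every panel the knockout points of a sex lie wholly above or wholly below its wild-type points, with Lcn2 shown for comparison although it was not called.

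Of the genes that mark the ends of the liver lobule, the periportal Cdh1 fell and the pericentral Aldh1a1 rose. Cdh1, the adhesion protein E-cadherin, which periportal hepatocytes and bile duct cells make, was listed at 10.5, 5.41 and 8.0 FPKM in WT males and at 1.92, 1.27 and 1.03 in OXR1A-/- males. In females it stood at 4.41, 3.22 and 3.42 in WT and at 2.0, 1.24 and 1.38 in OXR1A-/-. Both knockout groups thus ended between 1.03 and 2.0, although the wild-type males had started higher than the wild-type females. The fall was 5.66-fold in males and 2.39-fold in females (log2 change -1.38, SE 0.20, adjusted p = 0.0166).

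Of 18 tested periportal and urea cycle genes, Cdh1 was the sole call (0.0955% of all tested genes were called downwards). An unadjusted p under 0.05 was reached downwards by 8 (3.02% of all tested genes) and upwards by 2 (15.3%). The median was -0.22 (-0.13 in males and -0.18 in females), and 11 of the 18 were lower in knockout in both sexes against 2 that were higher in both. Of all 11514 tested genes, 1433 were lower in both and 4829 higher in both. Hal, the histidine-degrading enzyme, was the other member without overlap in both sexes (log2 change -0.40, SE 0.11, adjusted p = 0.115). Argininosuccinate lyase (Asl), of the urea cycle, had a log2 change of -0.51 with an adjusted p of 0.111. The 8 tested markers of bile duct cells had a median of 0.01, with no call. Tspan8 alone of them was without overlap upwards in both sexes (3.31% of all tested genes were), but not with median-ratio scaling. Its log2 change was 0.45 (SE 0.11, adjusted p = 0.0919).

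Of 19 tested pericentral genes, Aldh1a1 was the sole call (0.182% of all tested genes were called upwards). An unadjusted p under 0.05 was reached upwards by 8 (15.3% of all tested genes) and downwards by 2 (3.02%). Their median was 0.28, with 0.31 in males and 0.28 in females. With median-ratio scaling it was 0.08 in males and 0.29 in females. Glul, the glutamine synthetase made by the hepatocytes next to the central vein, was listed at 212, 188 and 248 FPKM in WT males against 322, 394 and 278 in OXR1A-/- males, and at 269.6, 247 and 251 in WT females against 352, 379.5 and 311 in OXR1A-/- females. It was without overlap in both sexes but did not pass (log2 change 0.52, SE 0.10, adjusted p = 0.0566). The same holds for the amino acid transporter Slc1a4 (0.60, SE 0.12, adjusted p = 0.0566), the ammonium transporter Rhbg (0.88, SE 0.21, adjusted p = 0.0863) and the secreted protein Lect2 (0.45, SE 0.11, adjusted p = 0.0828). In all, 5 of 19 pericentral genes were without overlap upwards (4 with median-ratio scaling) against 3.31% of all tested genes, and 2 of 18 periportal genes downwards (3 with that scaling) against 0.582%.

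Called genes of intermediary metabolism went in both directions, the enzymes Gpd1 and Phospho1 upwards and the transporter Slc13a2 and the hormone gene Enho downwards. They were grouped here after their values were seen. Gpd1, the glycerol 3-phosphate dehydrogenase that links glycolysis to triglyceride synthesis, was listed at 126, 126 and 121 FPKM in WT males, 225, 183 and 245 in OXR1A-/- males, 85.3, 87.0 and 99.9 in WT females and 118, 129.8 and 118 in OXR1A-/- females. It rose 1.75-fold and 1.34-fold (log2 change 0.61, SE 0.10, adjusted p = 0.0269, and 0.0843 with median-ratio scaling). Phospho1, a phosphatase of phosphocholine and phosphoethanolamine, rose 3.13-fold and 2.26-fold (log2 change 1.25, SE 0.22, adjusted p = 0.0381, and 0.0728 with that scaling). Its values ran from 7.29 to 13.5 in WT males, 21.2 to 34.5 in OXR1A-/- males, 1.92 to 4.17 in WT females and 4.64 to 9.62 in OXR1A-/- females.

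Slc13a2, a transporter of citrate and other dicarboxylates, was a low transcript that fell in both sexes, from 1.49 to 1.93 FPKM in WT males to 0.15, 0.39 and 0.19 in OXR1A-/- males, and from 0.93 to 1.27 in WT females to 0.41, 0.52 and 0.58 in OXR1A-/- females (log2 change -0.81, SE 0.12, adjusted p = 0.0201). Enho encodes adropin, a peptide hormone tied to energy balance. It was listed at 6.46, 8.86 and 8.5 FPKM in WT males and 1.02, 0.66 and 3.99 in OXR1A-/- males, and at 9.51, 9.80 and 12.9 in WT females and 5.02, 2.98 and 5.16 in OXR1A-/- females. It fell 4.2-fold in males and 2.45-fold in females (log2 change -1.47, SE 0.25, adjusted p = 0.0321), with OXR1A-/- male 3 well above the other knockout males.

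A pair of called genes encode enzymes of nucleotide synthesis. Ctps, the CTP synthase, rose from 0.88 to 1.06 FPKM in WT males to 2.68, 2.47 and 2.70 in OXR1A-/- males, and from 0.59 to 0.84 in WT females to 1.19, 1.15 and 1.21 in OXR1A-/- females (log2 change 0.63, SE 0.10, adjusted p = 0.0269). Tk1, the thymidine kinase of the salvage route, fell from 19.5, 22.4 and 23.0 in WT males to 6.30, 9.09 and 8.53 in OXR1A-/- males, and from 30.8, 25.7 and 17.3 in WT females to 15.8, 12.6 and 15.6 in OXR1A-/- females (log2 change -1.01, SE 0.16, adjusted p = 0.0269). Tk1 is best known as a gene of dividing cells, yet none of the 13 tested proliferation genes was called, and 3 of them, the replication helicase subunits Mcm3 and Mcm4 and the cell cycle inhibitor Cdkn1a, were without overlap upwards (against 3.31% of all tested genes). OXR1A-/- male 2 had the highest sum of this list, 120.1 FPKM where the remaining OXR1A-/- males had 65.1 and 57.4, and without it the male median was 0.08 in place of 0.43. Cdkn1a was listed at 3.90 to 4.15 FPKM in WT males, at 20.8, 46.0 and 6.74 in OXR1A-/- males, at 2.02 to 4.80 in WT females and at 6.37 to 8.98 in OXR1A-/- females (log2 change 1.44, SE 0.36, adjusted p = 0.0938).

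The selenium-binding protein Selenbp2, made mainly by male liver in mice, had the largest shared fall among called genes. It was listed at 215, 184 and 115 FPKM in WT males and at 17.7, 17.0 and 17.5 in OXR1A-/- males, and at 28.4, 33.7 and 22.6 in WT females and 13.9, 11.8 and 13.8 in OXR1A-/- females. The knockout males lay below the wild-type females, and the knockout females lay lower still. The fall was 9.86-fold in males and 2.15-fold in females (log2 change -2.11, SE 0.33, adjusted p = 0.0269), and the difference between them was called (2.15, SE 0.29, adjusted p = 0.0436).

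Proteins of the cytoskeleton, of protein folding and of the secretory path made a group of smaller rises, chosen as a group after their values were seen. The beta-tubulin Tubb4b rose 1.88-fold in males and 1.87-fold in females, and the beta-tubulin Tubb6 rose 1.79-fold and 1.59-fold (log2 changes 0.87 and 0.60, SE 0.15 and 0.10, adjusted p = 0.0381 and 0.0321). Hspb8, a small heat shock protein that works with Bag3 in clearing misfolded proteins, rose 1.66-fold and 1.37-fold, from 65.8 to 76.1 FPKM in WT males and 67.7 to 84.3 in WT females to 109 to 122 and 88.4 to 109.7 in knockout (log2 change 0.59, SE 0.09, adjusted p = 0.0269). Its partner Bag3 had a log2 change of 0.69 with an adjusted p of 0.0552. Ube2g2, a ubiquitin-conjugating enzyme of protein degradation at the endoplasmic reticulum, rose 1.60-fold and 1.31-fold (adjusted p = 0.0321). Cog8 and Golt1b, both of transport at the Golgi, rose 1.39-fold and 1.33-fold, and 1.85-fold and 1.65-fold (adjusted p = 0.0381 for each). Of these 6 genes, Tubb6 alone stayed called with median-ratio scaling (adjusted p = 0.035), and the others ranged from 0.0684 to 0.157. Tubb6, Hspb8, Ube2g2, Cog8, Golt1b, Gpd1 and 4930453N24Rik lie outside the rule by which genes were named and were chosen after their values were seen.

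Erdr1, a secreted erythroid differentiation regulator in the pseudoautosomal region of the X chromosome, rose by nearly the same factor in each sex. It was listed at 41.3, 37.0 and 47.0 FPKM in WT males, 84.7, 72.5 and 81.0 in OXR1A-/- males, 68.2, 38.3 and 57.8 in WT females and 114, 104 and 101 in OXR1A-/- females, a rise of 1.90-fold and 1.94-fold (log2 change 0.95, SE 0.12, adjusted p = 0.0146). Of the genes known by a RIKEN clone name, 4930453N24Rik rose 1.51-fold and 1.39-fold (log2 change 0.50, SE 0.07, adjusted p = 0.0146). 9130409I23Rik rose 1.65-fold and 1.80-fold (0.69, SE 0.12, adjusted p = 0.0321). With median-ratio scaling these adjusted p were 0.0684 for the first and 0.0767 for the second, whose groups then overlapped. The third, 2310001H17Rik, fell 2.46-fold and 1.53-fold (-0.88, SE 0.15, adjusted p = 0.0321).

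The remaining falls were of genes of mixed function. Ngef, a guanine nucleotide exchange factor, fell 1.85-fold in males and 2.16-fold in females (log2 change -0.86, SE 0.15, adjusted p = 0.0321), and the doublecortin-like kinase Dclk3 fell 3.08-fold and 1.59-fold (-0.80, SE 0.15, adjusted p = 0.0466). Cystm1, a small cysteine-rich membrane protein, fell 2.09-fold and 2.60-fold (-0.96, SE 0.17, adjusted p = 0.0368), with OXR1A-/- male 1 at 3.50 FPKM close to WT male 1 at 4.01. Lect1, also called chondromodulin, fell 2.88-fold and 2.03-fold (-0.88, SE 0.16, adjusted p = 0.0422), and here WT female 3 at 1.94 lay close to OXR1A-/- female 1 at 1.78. The transmembrane protein Tmem25 fell 1.39-fold and 1.5-fold (-0.49, SE 0.09, adjusted p = 0.0382).

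In a second form of the fit, with 1 mean per group, the spread is estimated within the 4 groups, so that a difference between the sexes no longer widens it. In that form 168 genes (1.46%) were called for the mean of the male and female effects, 162 of them with the same sign in both sexes, and all 32 shared genes were among them. In the same form 294 genes (2.55%) were called in males and 2 (0.0174%) in females, and 3 (0.0261%) had a called difference between the sexes. Of the 294 male calls, 116 were also called for the mean effect and 178 were not. Of the 32 shared genes, 26 were among the male calls and 1, Orm2, among the female calls. The other female call was the long non-coding RNA 1810053B23Rik, with a log2 change of -1.54 in females and -0.06 in males. Each of these counts shares its libraries with the shared comparison, and none is independent evidence for it. Of 11514 tested genes, 6262 had the same sign in both sexes, and across genes, which are not independent replicates, the male and the female log2 change had a Pearson r of 0.21 without shared libraries.

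The listed genes with a sex bias in liver differed by genotype mainly in males, by their medians. The 30 tested male-biased genes had a median of -0.97 in males and 0.10 in females, and the 41 tested female-biased genes one of 1.15 in males and -0.23 in females. Of the male-biased genes only Selenbp2 was called, downwards, and of the female-biased none. Of all tested genes, 0.0955% were called downwards and 0.182% upwards. An unadjusted p under 0.05 was reached by 10 male-biased genes, all downwards. Among the female-biased it was reached by 13 upwards and 1 downwards (15.3% and 3.02% of all tested genes). Selenbp2 and Ces2a were the male-biased genes without overlap in both sexes, downwards (0.582% of all tested genes). The summed FPKM of 20 tested major urinary protein (Mup) genes was lower in knockout without overlap in both sexes. It ran from 48492 to 95384 in WT males and from 7150 to 46594 in OXR1A-/- males. In females it ran from 11879 to 20540 in WT and from 6124 to 9869 in OXR1A-/-. The difference in this sum was not tested. Cyp2b13, a P450 typical of female liver, and Sult1e1, the estrogen sulfotransferase, were the 2 of 41 female-biased members without overlap upwards in both sexes, a share near the 3.31% of all tested genes. Sult1e1 was listed at 0.03, 0.03 and 0.15 FPKM in WT males, 0.19, 3.62 and 0.41 in OXR1A-/- males, 0.14 to 0.19 in WT females and 1.81, 1.84 and 2.87 in OXR1A-/- females (log2 change 1.15, SE 0.27, adjusted p = 0.0828). Among 22 tested genes of growth hormone, STAT5 and IGF signalling none was called. The IGF-binding proteins Igfbp3, with 0.67 (SE 0.14, adjusted p = 0.0566), and Igfbp2, with -1.47 (SE 0.35, adjusted p = 0.0828), were without overlap in both sexes, in opposite directions. Of all tested genes, 3.31% were so upwards and 0.582% downwards. Igfbp3 was no longer without overlap in both sexes with median-ratio scaling or with quantile normalization.

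**Figure D4:**
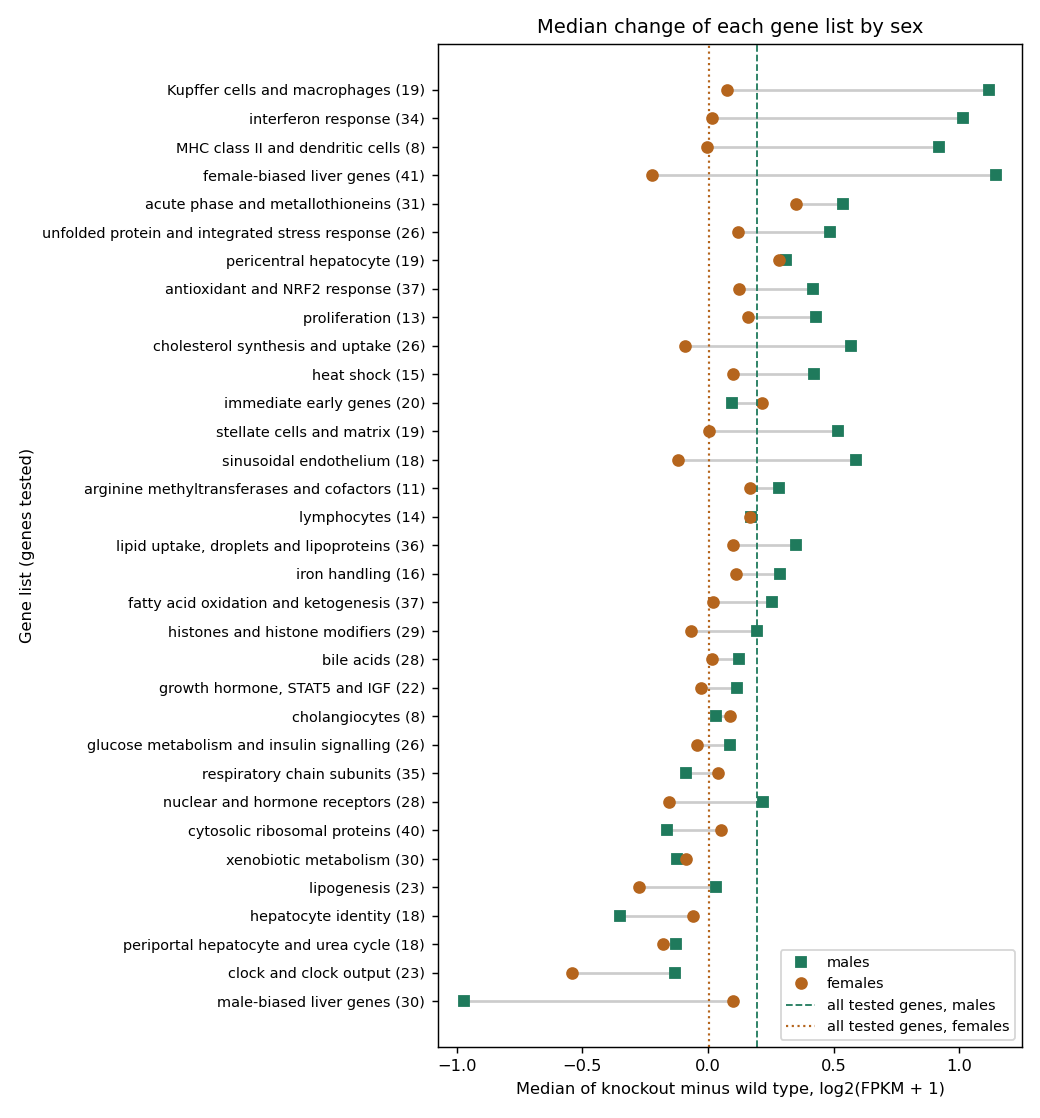
Median difference between knockout and wild type, log2(FPKM + 1), over the tested genes of each list in males (squares) and females (circles), with the number of tested genes in brackets. Lists with at least 5 tested genes are shown, and the vertical lines are the medians of all tested genes, 0.19 in males (dashed) and 0.00 in females (dotted). The pericentral and acute phase lists lie to the right of the line of each sex. So do others, among them the antioxidant, unfolded protein, heat shock, proliferation, Kupffer cell and interferon lists. The Kupffer cell, interferon and female-biased lists have medians above 1 in males and from -0.23 to 0.08 in females.

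The plot of list medians by sex shows which groups had like medians in both sexes. Among the TLDc genes, Oxr1 and its relatives Tbc1d24 and Tldc1 were tested and none was called. Of 11 tested arginine methyltransferases and cofactors none was called. In 10 of the 11 the mean was higher in knockout in both sexes, as it was in 4829 of 11514 tested genes, and the median was 0.19 (0.08 with median-ratio scaling). Wdr77, the partner of Prmt5, was without overlap upwards in both sexes (log2 change 0.29, adjusted p = 0.0938), against 3.31% of all tested genes. It was not so with median-ratio scaling or quantile normalization. Of 37 tested antioxidant and NRF2 genes none was called, and 3 were without overlap upwards (3.31% of all tested genes were), the quinone reductase Nqo1, the mitochondrial peroxiredoxin Prdx3 and the cystine transporter Slc7a11. With median-ratio scaling 1 of the list was.

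The lists of lipid genes gave no shared call, and Gpd1, which was called, is in none of them. Of 37 tested genes of fatty acid oxidation, 13 had an unadjusted p under 0.05 upwards (against 15.3% of all tested genes) and none was without overlap in both sexes. Their median was 0.16, and 0.04 with median-ratio scaling. Of 36 genes of lipid uptake and droplets, 13 had such a p upwards and 4 downwards (15.3% and 3.02% of all tested genes). The bile acid ligase and fatty acid transporter Slc27a5 was the sole member without overlap, downwards (0.582% of all tested genes). Cholesterol synthesis (26 genes) had a median of 0.57 in males and -0.09 in females. Lipogenesis (23 genes) had one of 0.03 and -0.27, and of -0.20 and -0.27 with median-ratio scaling. Fgf21, the fasting hormone of the liver, had a log2 change of 1.43 and an adjusted p of 0.0752.

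Of 23 tested clock genes none was called, with 7 downwards and 1 upwards at an unadjusted p under 0.05 (3.02% and 15.3% of all tested genes). Their median was -0.13 in males and -0.54 in females. The deubiquitinase Usp2 was without overlap downwards in both sexes (0.582% of all tested genes were). It was listed at 2.72 to 3.22 FPKM in WT males, 1.12 to 1.32 in OXR1A-/- males, 5.0, 8.07 and 0.71 in WT females and 0.42 to 0.57 in OXR1A-/- females (log2 change -1.22, SE 0.32, adjusted p = 0.0995). WT female 3 thus stood far below the other wild-type females. The labels give no time of day for the collection of the livers.

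The interferon list (34 genes) had a median of 1.01 in males and 0.02 in females, and the unfolded protein list (26 genes) one of 0.49 and 0.12, neither with a gene without overlap in both sexes. OXR1A-/- male 2 stood apart for interferon genes, with a summed 4600 FPKM where the remaining OXR1A-/- males had 453 and 426 and WT males 336 to 379, and without it the male median was 0.46. It also stood apart for the 8 genes of MHC class II and dendritic cells, where its sum was 1452 FPKM and the remaining OXR1A-/- males had 319.7 and 253, and their male median was 0.92 with it and -0.04 without it. None of the 40 tested ribosomal proteins and none of the 35 respiratory chain subunits had even an unadjusted p under 0.05. Of the other cell types, stellate cells and matrix had 2 genes without overlap upwards among 19 (against 3.31% of all tested genes), the proteoglycan Dcn and the nerve growth factor receptor Ngfr, and sinusoidal endothelium had none among 18.

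The 32 genes lay on 17 chromosomes, at most 4 on one. Distances here run from start coordinate to start coordinate. Apart from the Orm and Raet1 pairs, at 6.4 and 203.3 kb, the closest were Cdh1 and Cog8, at 445.4 kb, which moved in opposite directions. RefSeq promoters (250 bases before to 50 after the start) were found for 22 of the 32, 15 that rose and 7 that fell, and motifs were searched in them on both strands. None of the 22 held the STAT5 motif TTCNNNGAA, against 771 of 9162 promoters of tested genes (8.42%). The clock E-box CACGTG was held by Phospho1 alone (12.0% of all), a D-box, TTATGTAA or TTATGCAA, by Chi3l1 (1.56%), the antioxidant motif TGACNNNGC by 9130409I23Rik (17.0%) and the glucocorticoid motif by Cyp2c38 (2.54%). The PPAR, sterol, heat shock, CRE and ER stress motifs were held by none of the 22, against 0.0546% to 3.48% of all promoters.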

How the data were processed

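Poly(A) RNA of 12 livers was sequenced, per the labels' protocols. The deposited values are FPKM per gene with 2 decimals, per the file headers, 1 column for each library (0 other columns of per-sample values). TopHat2 and the mouse build mm10 are named in the submitters' processing notes. No source used here states the quantifier, the annotation, the filters or how many reads each library had. FPKM are relative to the library, so a change in abundant transcripts shifts all others. Among genes of at least 5 FPKM in both, no 2 libraries shared more than 0.338% of their values, and none was treated as a copy.

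Genes that reached 1 FPKM in 3 or more libraries were fitted in limma 3.58.1 (R 4.3.3) on log2(FPKM + 1). The model held sex and genotype, with variances moderated along a trend on the mean and two-sided tests adjusted by Benjamini-Hochberg over all tested genes at 0.05. A fit with 1 mean per group gave the male effect, the female effect and their difference. Folds are ratios of mean FPKM, and log2 changes understate those of low genes. "Without overlap in both sexes" means that all 3 knockout values lay on the same side of all 3 wild-type values in males and again in females. The fits were tested on simulated data first.

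The naming rule took Oxr1. Among called genes without overlap it took up to 14 with the largest rise and up to 14 with the largest fall. It also took genes called by the larger of the male and female p, and up to 3 members of each of 40 gene lists by p. Members and lists were chosen with earlier results of these data known. Hp, Hpx, Apcs, Lbp, Lect2, Rhbg, Nqo1, Mcm3, Mphosph10 and Slc16a6 fall outside this rule, and their results were already known when they were added. Entrez numbers of 18502 genes matched RefSeq (GRCm38), the source of coordinates and promoters, and lengths came from GENCODE mouse release 21. Alternatives changed the pseudocount (0.1), filter, scaling, weights, length trend, replicate block, model and libraries. Some of the listed genes and motifs are not reported here.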

Additional observations from a re-analysis of the deposited data

Results flagged for a closer look

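The knockout effect differed between males and females, by the interaction test in limma, for 3 of 11514 genes (0.0261%). Cyp2b9, a P450 enzyme made mainly by female liver, was listed at 1.0, 0.42 and 0.76 FPKM in WT males, 108, 131 and 38.1 in OXR1A-/- males, 401, 442 and 448 in WT females and 385, 298 and 447 in OXR1A-/- females. Its log2 change was 5.59 in males and -0.21 in females (adjusted p = 0.00122 for the difference). Slc22a27, an organic anion transporter, was listed at 1.79, 0.97 and 1.72 in WT males, 8.53, 16.4 and 8.39 in OXR1A-/- males, 37.2, 38.2 and 46.7 in WT females and 38.4, 29.4 and 38.9 in OXR1A-/- females. Its log2 change was 2.23 in males and -0.19 in females (adjusted p = 0.0436). Selenbp2 was the one whose direction was shared, with a log2 change of -3.18 in males and -1.03 in females (adjusted p = 0.0436). Cyp2b9 and Slc22a27 were not called over both sexes (adjusted p = 0.142 and 0.189).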

How the results depend on the processing

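The shared comparison called 32 genes, and between 3 and 90 when 1 library was left out. It called 19 with no filter on low values, 51 with a mean of at least 5 FPKM, 61 with quantile normalization, 66 with the length trend removed, 736 with array weights, 168 as the mean of the male and female effects in the fit with 1 mean per group and 1 without the 3 libraries that held some RNA of the other sex's genes. The called genes with the same sign in both sexes numbered 32, and 3 to 90 with 1 library left out. Under the same alternatives they numbered 19, 51, 61, 66, 732, 162 and 1. The cause of these differences was not tested, except that leaving out libraries leaves fewer samples.

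The deviations of same-numbered libraries from their group means had correlations from -0.322 to 0.561. For differently numbered libraries of different groups the correlations ran from -0.617 to 0.417. With 3 libraries in a group these values cannot decide whether replicate numbers pair the libraries. With the replicate number as a block across all groups 14 genes were called, 14 of them with the same sign in both sexes, and with the block within each sex 6, again 6 with the same sign. In the block across groups the interaction gave 5 calls and the male contrast 132. In the block within sex the male contrast gave 129 calls, the female contrast 1 and the larger of the 2 p-values 0.

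By the larger of the male and female p, 1 gene was called, and 0 to 1 with 1 library left out. It was 0 with no filter, with median-ratio scaling, with quantile normalization, without the 3 libraries just named and with each sex fitted alone. Without overlap in both sexes there were 448 genes, 490 to 852 with 1 library left out and 1074 without the 3 libraries, as smaller groups overlap less. The interaction gave 3 calls, 1 to 22 with 1 library left out, 5 with a pseudocount of 0.1, 10 with array weights and 1 with the length trend removed. The male contrast gave 294 calls, 58 to 570 with 1 library left out, 174 with no filter, 152 with median-ratio scaling, 140 with quantile normalization, 63 with array weights, 125 without the 3 libraries and 3 with males fitted alone. The female contrast gave 2 calls, 0 to 12 with 1 library left out, 1 with a pseudocount of 0.1, 4 with no filter, 1 with a mean of at least 5 FPKM, 1 with median-ratio scaling, 229 with array weights, 0 without the 3 libraries and 6 with females fitted alone.

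Over the named genes and all alternatives, 1847 values kept their direction and their side of the threshold, 290 lost the call, 88 gained it and 3 turned. Those that turned were of genes not called: Tbc1d24 with array weights (-0.012) and Tldc1 with median-ratio scaling (-0.019) and quantile normalization (-0.028). All 32 called genes kept their direction wherever they were tested, which was fixed in advance where libraries were left out. The depth of the libraries is unknown, so how far it limits low genes such as Chi3l1 and Slc13a2 cannot be given.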

Other observations

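The gene with the largest shared coefficient was not called, and it is described here after its values were seen. Mup15, a major urinary protein gene (GRCm38 chromosome 4), was listed at 0, 5576 and 709 FPKM in WT males, at 0, 0 and 517 in OXR1A-/- males, at 52.9, 338 and 547 in WT females and at 0 in all 3 OXR1A-/- females. The shared difference did not pass (log2 change -6.03, SE 2.02, limma adjusted p = 0.16). Mup genes are near copies of each other, and with WT males from 0 to 5576 the level of this copy is uncertain. The sum of the 20 tested Mup genes, given above, was lower in knockout without overlap in both sexes.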
